A study of Mus musculus with 6 samples.

Results

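The p53 family and its negative regulators comprise 6 genes here, the family members Trp53, Trp63 and Trp73 and the feedback regulators Mdm2, Mdm4 and Ppm1d. They were chosen by symbol, as the rows of the count table with these 6 names, and all 6 were found among its 32285 genes. RNA was sequenced from 6 libraries of GS cells, germline stem cell cultures that are derived from mouse testis and retain properties of spermatogonial stem cells. The cells of 3 libraries, called p57 KO here, have the genotype p57 flox/flox-Cre, and those of the 3 control libraries are p57 flox/flox; p57 is the protein of Cdkn1c, and every library thus carried loxP sites in both alleles of that gene. Per the labels' protocols, Cre came from an adenovirus, and RNA was taken at day 2 after infection from trypsin-dissociated cells passed over a Sephadex column. One growth protocol is given for all 6 libraries, so whether control cells met a virus is unknown from the sources used here, as are the deleted part of the gene and the number of cultures behind the replicates. The labels disagree on the source mice, which are BDF1 in one place and of C57BL/6 and 129 strains in another, and 3 days old in one place and 10 days old in another.

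p53 is a transcription factor that stress and DNA damage activate, and it drives genes of cell cycle arrest, repair and cell death. MDM2 is the ubiquitin ligase that marks p53 for degradation, MDM4 binds p53 and blocks its activation domain, and PPM1D, also called WIP1, is a phosphatase that removes activating phosphates from p53 and from the kinases upstream of it. Mdm2 and Ppm1d are themselves targets of p53, which closes negative feedback loops. p63 and p73 bind similar DNA sites; p63 is known for building stratified epithelia and for removing damaged oocytes, and p73 for multiciliated cells and, in mouse testis, for keeping germ cells attached to Sertoli cells.

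In p57 KO the RNA of 2 members, Mdm2 and Ppm1d, rose and that of Trp63 fell, while Trp53, Mdm4 and Trp73 did not pass the test. Of the 14814 genes tested, 11.6% rose and 11.6% fell, 23.3% together, so that calls were frequent across the whole table. Mdm2 was the member with the largest rise, to 136% of the control mean, Ppm1d stood at 109%, and Trp63 at 59.0%. All 6 members passed the filter on low counts. The test was edgeR's quasi-likelihood F-test over all genes with Benjamini-Hochberg adjustment, and "rose" and "fell" are used for an adjusted p under 0.05. Levels are normalised read counts in CPM (counts scaled by library size with TMM factors), fold changes are log2 of p57 KO over control with their standard error (SE), and n is 3 libraries per group throughout.

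The upstream sequences of Mdm2, Ppm1d and Trp53 are shown because the first pair rose while Trp53 did not pass the test. They are read on the gene's strand from RefSeq (GRCm38.p6, the assembly of mm10), end at or shortly before the annotated start, and leave out bases that the annotation counts as UTR of any gene. Capitals mark matches to a p53 half-site, the GC box GGGCGG, the CCAAT box CCAAT and the cAMP response element TGACGTCA, on either strand.
Mdm2, chr10:117710759-117711008, minus strand: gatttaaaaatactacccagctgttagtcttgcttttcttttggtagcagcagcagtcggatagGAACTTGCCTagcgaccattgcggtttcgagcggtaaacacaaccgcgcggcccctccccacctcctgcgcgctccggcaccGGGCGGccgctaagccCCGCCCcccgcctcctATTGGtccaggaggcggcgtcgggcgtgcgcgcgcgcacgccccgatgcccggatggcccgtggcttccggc
Ppm1d, chr11:85311004-85311243, plus strand: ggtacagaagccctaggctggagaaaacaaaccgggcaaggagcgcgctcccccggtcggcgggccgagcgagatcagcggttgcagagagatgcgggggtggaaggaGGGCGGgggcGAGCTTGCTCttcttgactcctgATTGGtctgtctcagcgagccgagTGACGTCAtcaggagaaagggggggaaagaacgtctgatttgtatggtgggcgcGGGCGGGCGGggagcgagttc
Trp53, chr11:69580256-69580358, plus strand: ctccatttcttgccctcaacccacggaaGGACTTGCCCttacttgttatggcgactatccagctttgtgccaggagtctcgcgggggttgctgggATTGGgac

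Each of the 3 windows holds 1 match to the p53 half-site, a degenerate motif that is searched on both strands. The match is GAACTTGCCT at 186 to 177 bases before the RefSeq start of Mdm2, GAGCTTGCTC at 132 to 123 bases before that of Ppm1d, and GGACTTGCCC at 75 to 66 bases before that of Trp53. Of all 32851 windows of 250 bases before RefSeq starts, 7.13% hold such a match, against 3 of the 7 windows of 5 members and 11 of 44 windows of 31 p53 targets. The motifs were chosen with the members' sequences in view, so the members' share cannot be read as an enrichment. The windows of Mdm4 and Trp73, which like Trp53 did not pass the test, hold none and are not shown, and Trp63 has no window in the table. The GC box occurs on 2 strands of the Mdm2 window and in 3 places of the Ppm1d window, of which 2 overlap, and in 32.7% of all windows. The CCAAT box is read on the other strand in each of the 3 windows, and 33.8% of all windows hold it. The cAMP response element occurs in the Ppm1d window and in 1.55% of all windows, and the E-box CACGTG, in 6.02% of all windows, in none of the members' windows. The known p53-responsive promoter of Mdm2 lies in the first intron and thus outside the sequence shown. A match in letters is not evidence of binding.

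Depth was similar in all libraries, with total counts of 15662833 to 17893671. The targeted gene, Cdkn1c, had 138, 155 and 152 counts in the p57 KO libraries, against 344, 364 and 311 in control (log2 fold change -1.22, SE 0.09, adjusted p = 4.07e-09 in edgeR), and every p57 KO library lay below every control library, at 42.9% of the control mean. Cdkn1c shares 625 exonic bases with Gm44732 on the other strand, which had 30 counts in all. Germ cell RNA was present in every library: 8 germ cell markers summed to 1936 to 2028 CPM in p57 KO and to 2181 to 2245 CPM in control, with 3 lower and 0 higher, and 18 markers of undifferentiated spermatogonia to 3259 to 3430 CPM in p57 KO and 3727 to 3829 CPM in control, with 12 lower and 1 higher. Fibroblast and feeder cell markers moved the other way. All 20 had a positive log2 fold change (median 1.53) and 6 of them rose, their sum was 1422 to 2820 CPM in p57 KO and 907 to 1161 CPM in control, and none was at 0. Their mean log2 CPM was 4.18, 4.82 and 5.35 in p57 KO replicates 1, 2 and 3 and 3.27, 3.80 and 3.35 in control replicates 1, 2 and 3. Sertoli markers summed to at most 56.4 CPM in p57 KO and 63.1 CPM in control, macrophage markers to at most 28.7 CPM in p57 KO and 25.95 CPM in control, endothelial markers to 97.8 CPM in p57 KO and 107 CPM in control, and Leydig markers to 3.35 CPM in p57 KO and 3.94 CPM in control. Of the 4 macrophage markers tested 3 rose and 1 fell, of 5 endothelial markers 1 rose and 2 fell, and of 6 markers of differentiating spermatogonia 3 rose and 1 fell. In bulk RNA, fewer cells of a type and less RNA per cell cannot be told apart.

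Trp53, which encodes p53, spans 69580359 to 69591873 of chromosome 11 (mm10, plus strand). Its level was 139, 144 and 133 CPM in the p57 KO libraries, against 141, 145 and 148 CPM in control. The ranges overlap, since p57 KO replicate 2 lies above control replicate 1. Means were 139 ± 5.52 CPM in p57 KO and 145 ± 3.71 CPM in control (SD, n = 3 each), with a log2 fold change of -0.06 (SE 0.04, adjusted p = 0.252 in edgeR). The 95% interval of the fold ran from 0.914 to 1.01. With 2204 to 2457 counts per library this was a well measured gene, and its spread between replicates, 3.97% of the mean in p57 KO and 2.57% in control, lay above the counting error of 2.08% in p57 KO and 2.06% in control. The annotation holds a processed pseudogene of Trp53 and another of Mdm4, and since it is not stated how multiply matching reads were counted, both levels are uncertain to that extent.

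Trp63, the gene of p63, spans 25683763 to 25892102 of chromosome 16 (mm10, plus strand) and was read at a low level. It had 49, 36 and 46 counts in the p57 KO libraries and 80, 70 and 68 in control. In CPM these were 3.09, 2.19 and 2.58 in p57 KO and 4.85, 4.12 and 4.35 in control, and the groups did not overlap. The log2 fold change was -0.76 (SE 0.18, adjusted p = 0.00421 in edgeR), and 0.257% of the tested genes had a more negative fold. The interval of the fold was wide, from 0.453 to 0.768. Spread between replicates was 17.3% of the mean in p57 KO and 8.46% in control, against a counting error of 15.1% in p57 KO and 11.7% in control. With the mean level of the fibroblast markers as a covariate the log2 fold change was -0.40 (edgeR adjusted p = 0.704). In that fit 1.37% of all tested genes rose and 0.911% fell. Since the marker level was higher in every p57 KO library than in any control library, it cannot be fully told apart from the genotype. Over all 15 alternatives the adjusted p of Trp63 reached from 0.00082 to 0.704. The low end came from the fit without the low count filter, whose p-values are too small. The next lowest was 0.00136 in edgeR, without p57 KO replicate 1. Gene counts do not separate the long p63 isoforms from the short ones that lack the activation domain.

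Trp73, which encodes p73, spans 154056253 to 154140208 of chromosome 4 (mm10, minus strand). It had 23, 24 and 32 counts in the p57 KO libraries and 17, 22 and 24 in control, the fewest of the 6 members. These are 1.45, 1.46 and 1.79 CPM in p57 KO and 1.03, 1.29 and 1.53 CPM in control, and the groups overlap. The log2 fold change of 0.29 (SE 0.27, adjusted p = 0.477 in edgeR) has a 95% interval of the fold from 0.829 to 1.81, so that at this depth a decrease within that interval cannot be told from an increase. A stretch of 280 exonic bases is shared with Trp73os on the other strand, which had 3 counts over all libraries together.

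**Figure D1:**
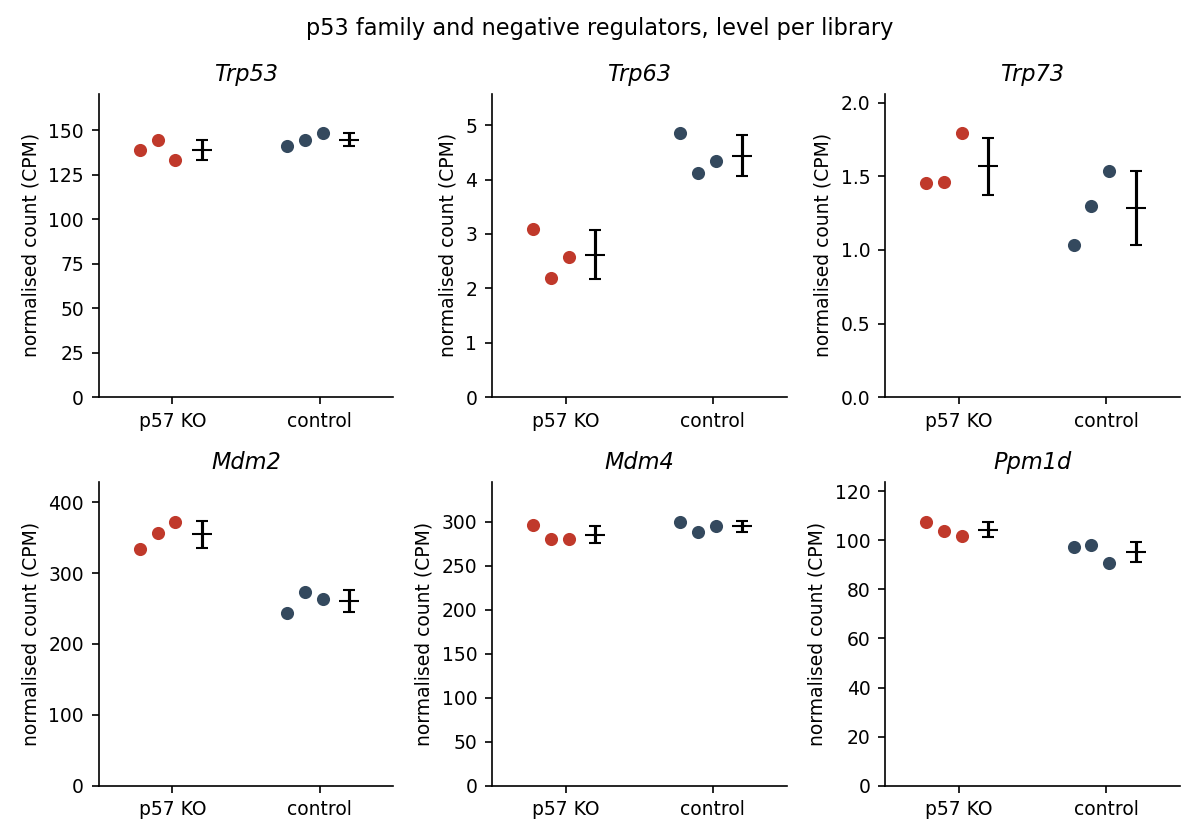
Level of each member in every library, in CPM on a linear axis from 0, with p57 KO to the left of control; points are libraries, and bars beside them give the mean and SD of 3. Mdm2 and Ppm1d are higher and Trp63 lower in every p57 KO library than in any control library, while the groups overlap for Trp53, Trp73 and Mdm4.

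Mdm2, the ubiquitin ligase gene, spans 117688875 to 117710758 of chromosome 10 (mm10, minus strand). Levels were 335, 357 and 373 CPM in p57 KO replicates 1, 2 and 3, against 244, 274 and 263 CPM in control replicates 1, 2 and 3. Every p57 KO library lay above every control library, and the lowest p57 KO value exceeded the highest control value by more than the SD of either group. Means were 355 ± 19.1 CPM in p57 KO and 261 ± 15.1 CPM in control (SD, n = 3 each). The log2 fold change was 0.45 (SE 0.05, adjusted p = 0.000527 in edgeR), a fold of 1.36 with a 95% interval from 1.26 to 1.48. Mdm2 had 4027 to 6655 counts per library. Its spread between replicates, 5.40% of the mean in p57 KO and 5.78% in control, was wider than the counting error of 1.30% in p57 KO and 1.53% in control. The call held in each fit that left out 1 library, with log2 fold changes from 0.40 to 0.48. With the fibroblast marker level as a covariate the log2 fold change was 0.24 (edgeR adjusted p = 0.0083). That fit assigned Mdm2 41.9 total degrees of freedom, against 7.91 in the main fit, so that its adjusted p may be too small. Ordered by Mdm2 level, the libraries stood in the same order as by marker level, over both groups together and within each. The order ran from control replicate 1 (244 CPM, mean log2 CPM of the markers 3.27) to p57 KO replicate 3 (373 CPM, 5.35). The cause of this match was not tested.

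Ppm1d, the phosphatase gene, spans 85311244 to 85347066 of chromosome 11 (mm10, plus strand). It stood at 108, 104 and 102 CPM in the p57 KO libraries and at 97.2, 98.2 and 90.6 CPM in control. The groups did not overlap, and the gap between the lowest p57 KO and the highest control library was about as wide as the SD of 3.05 CPM in p57 KO. The log2 fold change was 0.13 (SE 0.04, adjusted p = 0.0203 in edgeR), a fold of 1.09 with an interval from 1.03 to 1.16. This call was the least stable of the 3. The adjusted p was 0.143 when control replicate 3 was left out, with a log2 fold change of 0.09, and 0.0696 and 0.0523 for p57 KO replicates 1 and 2, at 0.10 and 0.13. It was 0.0729 in DESeq2, by which 9.47% of all genes rose and 7.05% fell. The members that rose thus numbered 1, Mdm2, in each of these fits. Over all tested genes, 1180 of 15163 rose without control replicate 3. Without p57 KO replicates 1 and 2, 2136 of 15087 and 1285 of 15027 rose. Adding the fibroblast marker level as a covariate gave 0.18 (edgeR adjusted p = 0.25, the highest of the 15 alternatives).

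Mdm4, the gene of the MDM2 partner MDM4, spans 132959484 to 133030561 of chromosome 1 (mm10, minus strand). Levels of 296, 280 and 280 CPM in p57 KO overlapped those of 300, 288 and 295 CPM in control. The log2 fold change was -0.05 (SE 0.03, adjusted p = 0.277 in edgeR), and the interval of the fold, 0.929 to 1.01, holds no rise like that of Mdm2. Mdm4 had 4598 to 4995 counts per library.

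**Figure D2:**
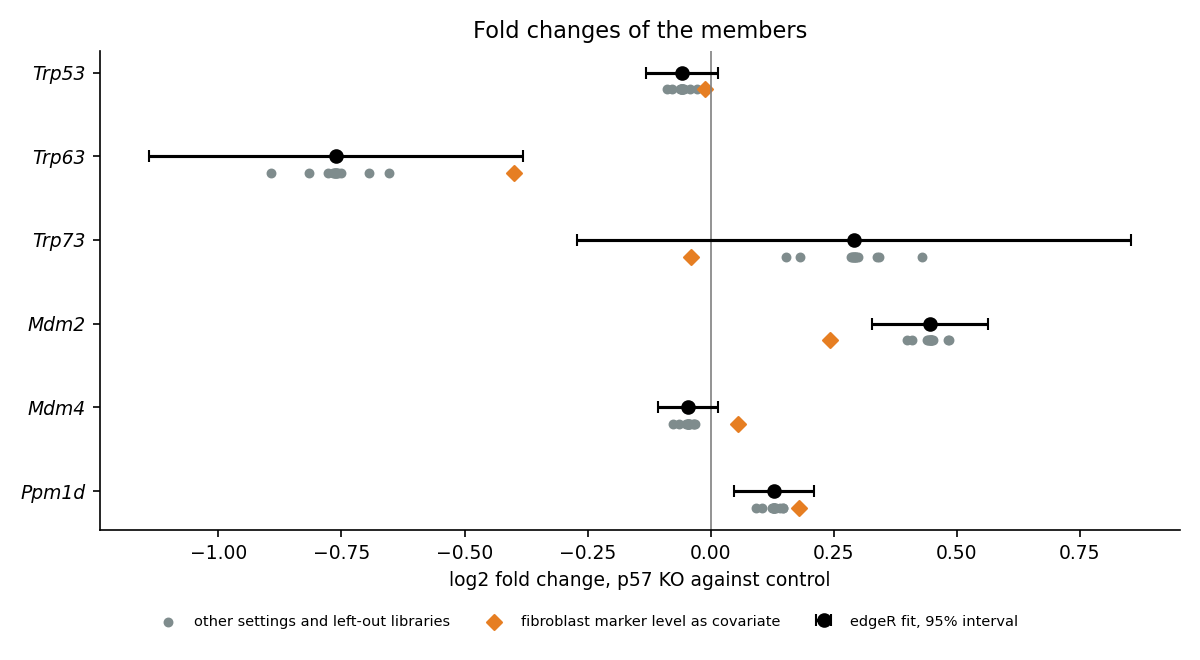
Log2 fold change of each member, p57 KO against control: black points with bars are the edgeR fit with its 95% interval, grey points the other settings and the fits without 1 library, and orange diamonds the fit with the fibroblast marker level as a covariate. Mdm2 and Ppm1d stay above 0 and Trp63 and Trp53 below 0 under every setting shown, and Mdm4 and Trp73 change sign with the covariate.

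Exact two-sided permutation tests of log2 CPM over the libraries gave p = 0.1 for Mdm2, Ppm1d and Trp63, the smallest that 3 against 3 allow. The same exact tests gave p = 0.2 for Trp53 and p = 0.3 for Mdm4 and Trp73. Across all tested genes, 39.2% had groups that did not overlap, beside 23.3% called.

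Levels of the members were compared with each other per kb of merged exon. Mdm2 was highest, at 69.8 ± 3.77 CPM per kb in p57 KO and 51.3 ± 2.96 in control (SD, n = 3 each). Trp53 followed with 34.4 ± 1.36 CPM per kb in p57 KO and 35.8 ± 0.918 in control. Ppm1d had 32.9 ± 0.960 CPM per kb in p57 KO and 30.0 ± 1.29 in control, and Mdm4 19.3 ± 0.650 in p57 KO and 19.9 ± 0.399 in control (SD, n = 3 each). Trp63 and Trp73 were far below, Trp63 at 0.312 ± 0.0539 in p57 KO and 0.529 ± 0.0448 in control, and Trp73 at 0.283 ± 0.0351 in p57 KO and 0.233 ± 0.0454 in control. Most neighbours in this order were separate in both groups. In p57 KO, however, the libraries of Trp53 (32.98 to 35.7 CPM per kb) and of Ppm1d (32.0 to 33.9) overlapped, as did those of Trp63 (0.261 to 0.369) and Trp73 (0.262 to 0.324). In control neither pair did. Merged exons hold every annotated transcript, 14.798 kb for Mdm4 against 5.083 kb for Mdm2, so that the level per length is understated where the longest transcripts are not made.

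**Figure D3:**
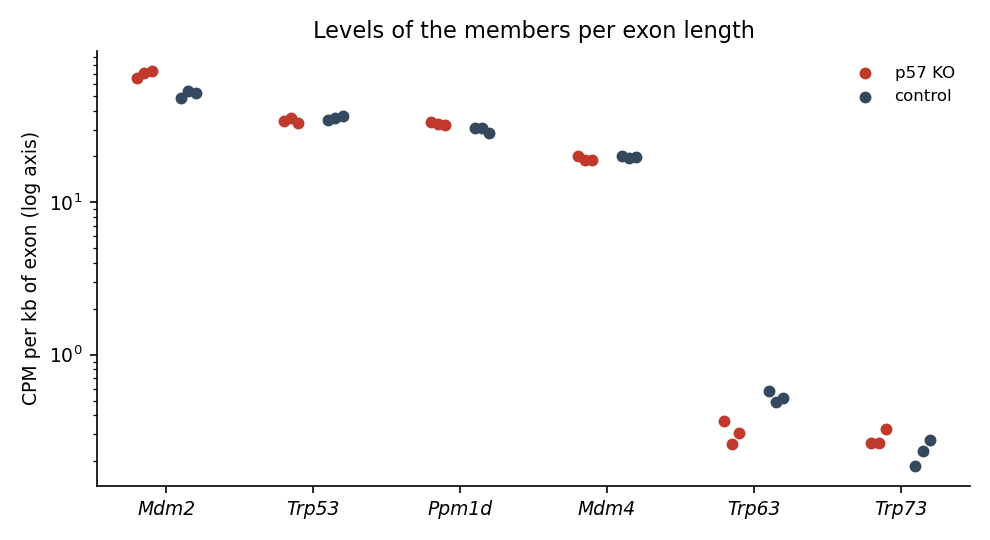
CPM per kb of merged exon for each member on a log axis, ordered by the control mean; points are libraries, p57 KO to the left of control. Mdm2, Trp53, Ppm1d and Mdm4 lie between 18.9 and 73.3 and Trp63 and Trp73 below 0.6 CPM per kb.

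Ratios of read counts between members within a library do not depend on how libraries are scaled. They were used to compare the groups, not to compare the genes, whose lengths differ. Reads of Mdm2 per read of Trp53 numbered 2.41, 2.47 and 2.79 in the p57 KO libraries and 1.73, 1.89 and 1.78 in control, without overlap. For Mdm2 per Mdm4 the values were 1.13, 1.28 and 1.33 in p57 KO and 0.814, 0.950 and 0.892 in control, again without overlap, so that Mdm4 had more reads than Mdm2 in every control library and fewer in every p57 KO library. The ratio of Ppm1d to Trp53 was 0.774, 0.718 and 0.762 in p57 KO and 0.690, 0.679 and 0.611 in control, also apart. That of Mdm4 to Trp53 was 2.13, 1.94 and 2.10 in p57 KO and 2.13, 1.99 and 1.99 in control, with overlap. That of Trp63 to Trp53 was 0.0189 ± 0.00355 in p57 KO and 0.0307 ± 0.00323 in control (SD, n = 3 each). The log2 differences, p57 KO minus control, were 0.50 for Mdm2:Trp53, 0.49 for Mdm2:Mdm4, 0.19 for Ppm1d:Trp53, 0.01 for Mdm4:Trp53 and -0.71 for Trp63:Trp53. In exact two-sided permutation tests Mdm4:Trp53 had p = 0.9 and each of the other 4 ratios p = 0.1, or 0.125 adjusted over the 5; no ratio could have passed 0.05 in this design.

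**Figure D4:**
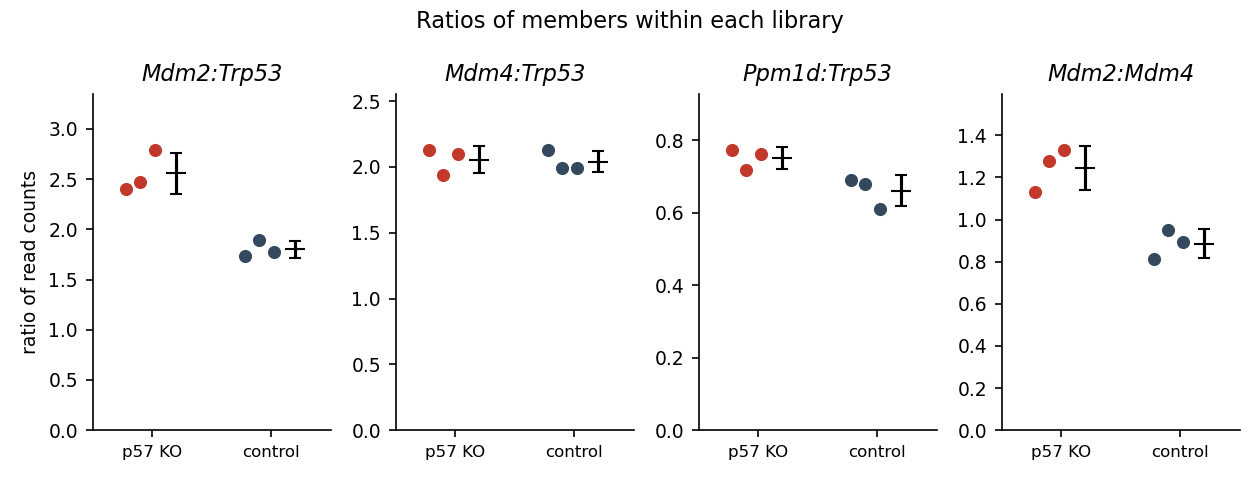
Ratios of read counts of members within each library on linear axes from 0, p57 KO to the left of control; points are libraries, and bars give the mean and SD of 3. The groups are apart for Mdm2:Trp53, Ppm1d:Trp53 and Mdm2:Mdm4 and overlap for Mdm4:Trp53.

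Among 32 genes listed as kinases, acetyltransferases and other activators of p53, 4 rose and 7 fell, beside 11.6% of all tested genes in each direction. The list is not one of upstream activators alone, since Rrm2b is also listed as a p53 target. The share that rose was thus near that of all genes. The median log2 fold change was -0.02, and -0.0019 over all tested genes. Pml, which organises nuclear bodies that hold p53 and its modifiers, rose by 0.58 on the log2 scale (edgeR adjusted p = 0.00561), and Cdkn2a, whose ARF product blocks MDM2, by 0.33 (0.00742). Cdkn2a also encodes p16, and gene counts do not tell these products apart. Its adjusted p was 0.0508 when control replicate 1 was left out and 0.0584 for p57 KO replicate 2. The acetyltransferase gene Kat2b fell by 0.24 (0.00218) and Mapk14, the gene of the stress kinase p38 alpha, by 0.11 (0.00934). Among the damage kinase genes, Chek1 fell by 0.16 (0.0224), and Atm, Atr and Chek2 had -0.02, -0.05 and -0.04 and were not called. When control replicate 1 or 3 was left out 3 fell, and for p57 KO replicate 2 the number was 4. Of all tested genes, 1305 of 15141, 1178 of 15163 and 1333 of 15027 fell in these fits, in this order. With the fibroblast marker level as a covariate none of the 32 was called in either direction by edgeR, while Pml then had -0.10, Cdkn2a -0.03, Kat2b -0.16 and Mapk14 -0.12.

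Among 29 other inhibitors of p53, ubiquitin ligases, deacetylases and the like, 2 rose and 5 fell, beside 11.6% of all tested genes in each direction, and the median log2 fold change was 0.0048. The share that rose was somewhat below that of all genes and the share that fell somewhat above it. On counts this small neither is read as a difference. Hexim1, whose product inhibits the elongation factor P-TEFb and in human cells has also been described to protect p53 from MDM2, rose to 67.7 ± 2.97 CPM in p57 KO, against 42.7 ± 2.28 CPM in control (SD, n = 3 each; log2 fold change 0.66, SE 0.05, adjusted p = 7.57e-09 in edgeR). Hexim1 is thus listed against its described effect on p53, and the other gene of the list that rose was Pa2g4, with 0.10 (edgeR adjusted p = 0.0146). Bcl6, whose product represses the p53 gene in human germinal centre B cells, fell by 0.42, Trim28, a cofactor of MDM2, by 0.15, and Cnot4, a ligase of the CCR4-NOT complex, by 0.15. When control replicate 3 or p57 KO replicate 2 was left out 1 rose, and when p57 KO replicate 3 was left out 3 fell. Of all tested genes, 1180 of 15163 and 1285 of 15027 rose and 1277 of 14991 fell in these fits, in this order. Adding the fibroblast marker level left 1 that rose, Hexim1 with 0.65, and 0 that fell. The p53 ubiquitin ligase genes Cop1 and Rchy1 had 0.10 and 0.04 and were not called.

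Ribosomal and nucleolar proteins that bind MDM2 form a further arm of its control. Of 18 such genes, 10 rose and 0 fell, beside 11.6% of all tested genes in each direction, with a median log2 fold change of 0.12 and a highest value of 0.29. Those with the smallest p were Rpl23 with 0.21, Rps27l with 0.29, Rps27 with 0.20 and Rpl26 with 0.17 (edgeR adjusted p from 7.04e-06 to 0.000142). All 10 that rose were ribosomal protein genes. The nucleolar genes Npm1, Ncl, Gnl3, Nop53, Mybbp1a and Nol12 had 0.03, 0.07, -0.04, 0.03, -0.04 and 0.07 and were not called. Ribosomal protein genes outside this list were not compared. Counts of ribosomal protein genes are uncertain, since these genes have many near-identical copies. In the fit with the fibroblast marker level 4 of the 18 rose, beside 1.37% of all genes.

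Mdm2 and Ppm1d are p53 targets, and other known targets were higher as well, in a list chosen with earlier results of these data in view. Of 40, 30 rose and 0 fell, with a median log2 fold change of 0.46, against 11.6% of all tested genes that rose. With its log2 fold change of 0.45 Mdm2 stood in the middle of them: 21 had a larger and 19 a smaller value, and 1 had a higher mean CPM in control. Ppm1d was among the lowest, with 32 above it. Gtse1, whose product restrains p53, rose to 203 ± 6.46 CPM in p57 KO, against 147 ± 4.12 CPM in control (SD, n = 3 each; log2 fold change 0.47, SE 0.03, adjusted p = 1.99e-09 in edgeR). The kinase gene Plk2 rose by 1.45, Bbc3, which encodes the death inducer PUMA, by 1.22, and the stress response gene Sesn2 by 0.66 on the log2 scale. In the fit with the fibroblast marker level 17 of the 40 rose, beside 1.37% of all genes. Because of how the list was chosen, neither share of the 40 is an independent comparison with all genes. Rrm2b also stands in the list of activators, Rps27l in that of ribosomal proteins and Perp in that of p63 targets, where it is counted again.

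Of 20 tested genes from a list of 25 p63 targets and epithelial genes, 9 rose and 1 fell, beside 11.6% of all tested genes in each direction, with a median log2 fold change of 0.14. Perp, a membrane protein gene that p53 and p63 both drive, rose by 1.66, the integrin gene Itgb4 by 1.02 and the linker gene Dst by 0.76, and the chromatin organiser gene Satb1 fell by 0.29 (edgeR adjusted p from 9.45e-08 to 0.000367). Dst and Itgb4 share exonic bases with genes on the other strand and Satb1 with genes on both, as do Pml and Bcl6 above with genes on the other strand, and their counts are uncertain to that extent, since the strand setting of the counting is not given. The defining keratin genes of basal epithelium, Krt5 and Krt14, had no read in any library, which allows a level of up to 0.168 to 0.192 CPM (3 counts) per library. The 6 basal epithelial markers together summed to 22.8 to 26.1 CPM in p57 KO and 18.2 to 24.4 CPM in control, most of it Col17a1, a hemidesmosome collagen gene, with 21.8 ± 1.98 CPM in p57 KO and 19.7 ± 2.93 CPM in control (SD, n = 3 each). Krt15, a further basal keratin gene, had 10, 8 and 5 counts in the p57 KO libraries and 0, 1 and 3 in control, too few to be tested. When control replicate 1 was left out 4 rose, beside 1230 of all 15141 tested genes. For p57 KO replicate 2, 5 rose, beside 1285 of 15027, and in DESeq2 5 rose, beside 9.47% of all genes. With the fibroblast marker level as a covariate 2 rose and 0 fell, beside 1.37% and 0.911% of all genes. Of 16 tested targets and partners of p73 among 18 listed, 5 rose and 2 fell, beside 11.6% of all tested genes in each direction, with a median of 0.08. The share that fell was near that of all genes. Foxj1 and Ccno, genes of the ciliated cell programme, rose by 0.59 and 1.29, Ank3 rose by 0.70, and E2f1, whose product activates Trp73, fell by 0.21 (edgeR adjusted p from 0.000208 to 0.00157). Other genes of the ciliated cell programme did otherwise: Rfx3 fell by 0.24 (edgeR adjusted p = 0.00441), Rfx2 had -0.18 and Cdc20b -0.24 and were not called, and Gmnc and Mcidas, with at most 4 counts in a library, were not tested. Ccno was at 2.16 CPM in p57 KO and 0.875 CPM in control. When control replicate 1 or p57 KO replicate 2 was left out 3 rose, beside 1230 of 15141 and 1285 of 15027 tested genes. With the fibroblast marker level as a covariate none was called in either direction, beside 1.37% of all genes that rose and 0.911% that fell. In that fit Ccno had 1.52 and Foxj1 0.54, while Ank3 had 0.15 and E2f1 -0.10.

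**Figure D5:**
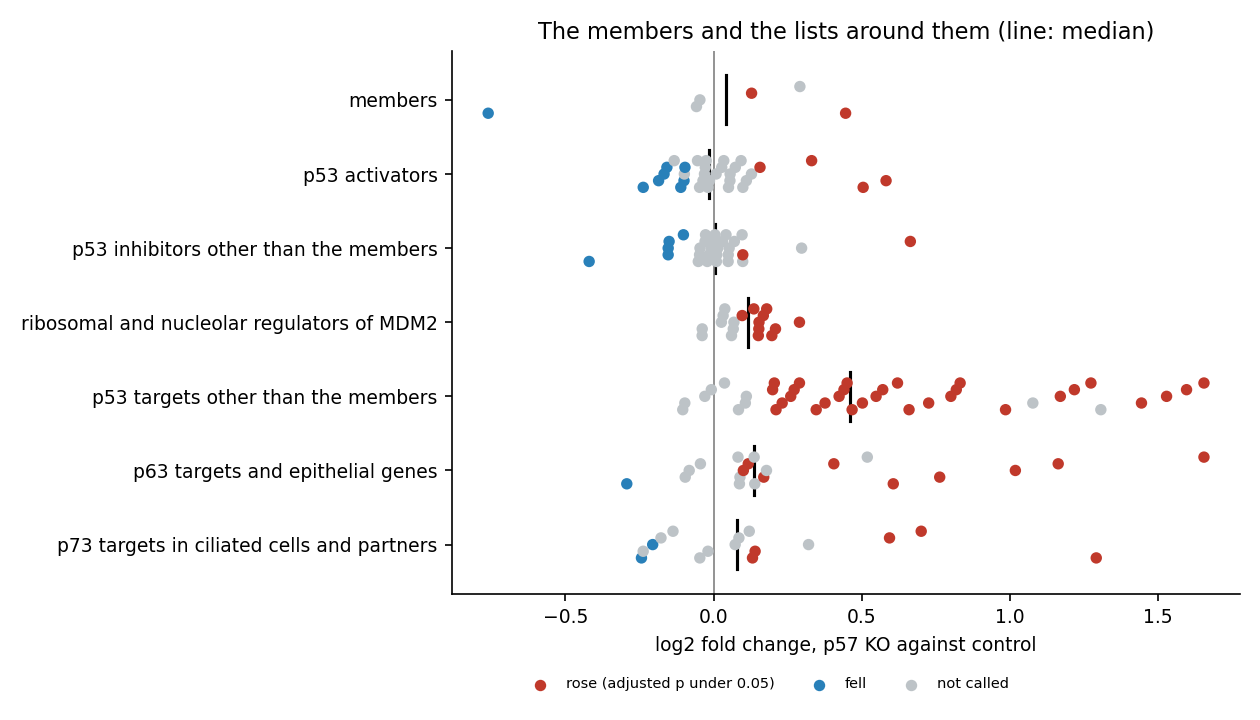
Log2 fold change, p57 KO against control, of the members and of the tested genes of each list around them; red points rose, blue points fell, grey points were not called, and black lines are medians. The p53 targets lie furthest to the right, with a median of 0.46, and the lists of activators and of other inhibitors lie around 0. All lists were chosen with earlier results of these data known.

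For each member that passed the test, the genes with a mean of at least 10 CPM over all 6 libraries and the most similar pattern over the 6 libraries were looked up, by the root mean square difference of centred log2 CPM. Nearest to Mdm2 among 9761 genes was Clic1, an intracellular chloride channel gene, at 0.0193, against a median of 0.252 over all these genes. Clic1 averaged 93.8 ± 4.33 CPM in p57 KO and 67.6 ± 3.79 CPM in control (SD, n = 3 each). Cep170b and Nfkbia, the gene of the NF-kB inhibitor IkB alpha, followed at 0.0205 and 0.0267, with log2 fold changes of 0.46 and 0.43. Nearest to Ppm1d were Gtf2h5, a TFIIH subunit gene, Ccdc124 and Arl6ip4, at 0.0079 to 0.0153, and none of these was called (edgeR adjusted p from 0.073 to 0.121). Nearest to Trp63 were Ric3, a chaperone gene of acetylcholine receptors, Mypop and the phosphodiesterase gene Pde4c, at 0.0862 to 0.110, with log2 fold changes of -0.65, -0.77 and -0.93. Ric3 averaged 9.35 ± 1.42 CPM in p57 KO and 14.7 ± 0.373 CPM in control (SD, n = 3 each), so that it met the minimum through its control level. It overlaps Tub, and Mypop overlaps Mypopos, on the other strand.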

How the data were processed

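The table deposited by the authors holds raw read counts of genes in 3 p57 KO and 3 control libraries, not normalized. Its build is mm10, and the tools HISAT2 2.2.1, HTSeq 2.0.2, cutadapt 3.4 and bcl2fastq 2.20 stand in the submitters' processing notes; per the labels' protocols a stranded mRNA kit was used, under a different kit name in the design text, which gives single reads of 76 bp. The annotation and the strand setting of the counting are not stated in the sources used. Groups and replicate numbers came from the sample titles. Every pair of replicates differed by more than sampling noise (chi-square per degree of freedom 1.69 to 5.97), and since nothing says that replicates were separate cultures, p-values reflect only how these libraries vary, possibly for technical reasons.

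Low genes were removed with edgeR's filterByExpr (minimum count 10), leaving 14814 genes for edgeR 4.0.16 (R 4.3.3), with TMM factors and the quasi-likelihood F-test with robust dispersions, the group as the only term and Benjamini-Hochberg adjustment over all tested genes, as the whole table was fitted at once. Intervals of folds use the SE and the total degrees of freedom of that fit at 95%; counting error is the Poisson value and covers counting only. Alternatives were RLE factors, total counts, DESeq2 1.42.0, limma-voom (limma 3.58.1), no filter, at least 1 CPM in 3 libraries, the replicate block, a fibroblast marker covariate, non-robust dispersions and each library left out. The test was tried on simulated data first.

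The members and lists were chosen with earlier results of these data known. Genes named from a list are its 4 tested genes of smallest p; the 3 most alike genes are given per called member. Atm, Atr, Chek1, Chek2, Pa2g4, Cop1, Rchy1, Npm1, Ncl, Gnl3, Nop53, Mybbp1a, Nol12, Krt15, Col17a1, Rfx2, Rfx3, Cdc20b, Gmnc and Mcidas were named after their values were seen, and the promoter motifs were chosen with the sequences in view. Positions and exon lengths are from GENCODE M21, which holds 32158 of the 32285 identifiers. Sequences are from RefSeq, where 5 of the 6 members have an entry.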

Additional observations from a re-analysis of the deposited data

How the results depend on the processing

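Results are given as edgeR's main values against alternatives. Mdm2, Ppm1d, Trp63 and Trp53 kept their direction in all 15 alternatives, though Ppm1d was not called in each of them. Replicate numbers are not shown to pair the libraries: same-numbered libraries correlated at 0.178, 0.0234 and -0.0967 in their deviations from the group means, and p57 KO replicate 3 correlated best with control replicate 2. With the replicate block 1934 genes were higher and 1772 lower, against 1725 each without it, and no member changed its call. DESeq2 gave 1403 higher and 1044 lower genes and 1 higher member, with Ppm1d at 0.13 (adjusted p = 0.0729); 2 activators of p53 were higher there, against 4. Without the low count filter 4 other inhibitors were higher, against 2. That unfiltered fit assigned a median of 92800 degrees of freedom to a gene, against 21.9 with the filter, so its p-values are too small (4.39e-45 for Mdm2) and only its fold changes are of use.

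With the fibroblast marker level as a covariate 203 genes were higher and 135 lower, 1 member was higher (Mdm2) and 0 lower, and 17 of the p53 targets were higher. In that fit Trp63 had -0.40 and Ppm1d 0.18, neither called, and Trp73 (-0.039), Mdm4 (0.056), Pml (-0.10) and Cdkn2a (-0.029) changed sign. The cause of these shifts was not tested.

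Leaving out 1 library, 1 to 2 members were higher and 1 was lower; Ppm1d ranged from 0.092 to 0.15, Trp63 from -0.89 to -0.65 and Mdm2 from 0.40 to 0.48. The difference of the Mdm4:Trp53 ratio crossed 0, from -0.015 to 0.054. Depth limits Trp73 and Trp63, whose counts per library lay between 17 and 80.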
